A study of Mus musculus with 24 samples.

Results

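Transcript levels of 8 genes of the glucocorticoid response were followed in the inguinal white adipose depot, fat that lies beneath the skin near the groin, of 24 wild-type mice (strain label C57BL/6J WT) that were fed a high-fat diet. The 8 genes were Nr3c1, Hsd11b1, Fkbp5, Tsc22d3, Zbtb16, Sgk1, Klf9 and Pdk4. They were found by symbol in the deposited table of normalised values and tested on the same Ensembl genes of the deposited raw counts. That table held 17541 genes, of which 15939 passed a filter on low counts, and all 8 genes were among them. The mice fell into 4 groups: 5 Aged BAM15 mice and 6 Aged CTRL mice of 92 weeks, and 6 Young BAM15 mice and 7 Young CTRL mice of 16 weeks. The compound BAM15 is a mitochondrial uncoupler, which lets respiration run without making ATP, and CTRL marks the control mice. The dose and length of treatment and the sex of the mice are not given in the labels used here. The design compares age within each arm and BAM15 at each age, and the submitters name the Young CTRL samples as its controls. The libraries were made with the QuantSeq kit, which reads transcripts from the 3′ end, so a count does not tell promoters or splice forms of a gene apart.

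Glucocorticoids are steroid hormones of the adrenal gland that enter cells and bind the glucocorticoid receptor, the product of Nr3c1. The bound receptor leaves its chaperones, moves to the nucleus and raises or lowers the transcription of target genes. In fat, glucocorticoids are known to promote adipocyte differentiation and to act on lipid breakdown and glucose use, and the enzyme encoded by Hsd11b1 regenerates active hormone inside the cell from its inert 11-keto form. Fkbp5 encodes a co-chaperone that is induced by the receptor and lowers its affinity for hormone. Tsc22d3, also called GILZ, Zbtb16, also called PLZF, Sgk1, Klf9 and Pdk4 are widely used as induced targets.

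Each library held 8.62 to 21.9 M counts. Adipoq, the adipocyte hormone adiponectin, stood at 1390 CPM or more in every library, where CPM is the count per 1e+06 counts of the tested genes after scaling. In 4 libraries (Aged BAM15 2, Aged BAM15 5, Aged CTRL 2 and Young CTRL 4) mt-Rnr2, the large ribosomal RNA of mitochondria, took 0.121% to 0.257% of counts, while no other library was below 0.722%. Mitochondrial transcripts as a whole took 11.99% to 21.35% of counts in these 4, against at most 9.27% in any other library. So mt-Rnr2 was low in them while the total mitochondrial share was high. These 4 were also the deepest, at 18.40 to 21.87 M counts, against at most 17.89 M elsewhere. The same 4 separated on principal component 1 (29.0% of the variance), and results that rest on them are given with and without them. Krt14, a keratin of skin epithelium, was detected at 840.0 CPM in Young CTRL 1, at 90.0 CPM in Young CTRL 7 and at no more than 3.28 CPM elsewhere. Acta1, which encodes muscle actin, was highest in Young BAM15 3 (14545 CPM), Young CTRL 7 (14063 CPM) and Aged CTRL 1 (5891 CPM). Lymphoid cells varied widely: the summed level of 10 B cell markers ran from 2.13 to 422 CPM in Aged BAM15, 7.52 to 327 CPM in Aged CTRL, 3.77 to 1687 CPM in Young BAM15 and 4.68 to 491 CPM in Young CTRL mice, while Cd79a, a subunit of the B cell receptor, reached 10.8 CPM at most and 0 in some libraries. With BAM15 the log2 change was positive for 10 of 10 B cell markers at each age (medians 1.33 in aged and 2.41 in young mice) and for 12 of 12 T and innate lymphoid markers in aged and 11 of 12 in young mice. With age it was positive for 2 of 10 B cell markers in CTRL and 0 of 10 in BAM15 mice, and for 0 of 12 T and innate lymphoid markers in both. None of these markers was called by edgeR.

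The receptor binds DNA as a dimer at 2 inverted copies of a 6-base site, and promoter sequence of the genes is shown to place such sites in the text. RefSeq promoters of build GRCm38.p6, taken here as the 250 bases before a transcript start, were held for 6 of the 8 genes, with 6 promoters for Sgk1 and 3 for Tsc22d3. Nr3c1 and Zbtb16 had no entry in the table. The palindrome searched, on both strands, was AGAACA and TGTTCT with any 3 bases between them, and its 6-base site TGTTCT, which it contains on each strand, was searched alone too. The palindrome stood in 3 of all 32851 promoters (0.00913%), and 1 of these was a promoter of Sgk1, within the annotated span of that gene. The 6-base site stood in 16.1% of all promoters and in promoters of Sgk1 and Tsc22d3. The E-box CACGTG, which the clock proteins bind, stood in 6.02% of all promoters and in promoters of Sgk1 and Fkbp5. The D-box TTATGTAA, bound by the clock factors encoded by Dbp, Tef and Hlf, stood in 0.819% of all promoters and in none of the 13 promoters of these genes, which says only that these letters are not in the windows searched. The Sgk1 promoter at chr10:21993640-21993889 (plus strand) is printed first, with the E-box and the palindrome in capitals. The palindrome lies 189 to 175 bases before the transcript start, and the E-box there overlaps a further TGTTCT at 242 to 237 bases. The Fkbp5 promoter at chr17:28486150-28486399 (minus strand) has its E-box in capitals, and the Tsc22d3 stretch at chrX:140600682-140600727 (minus strand) has its TGTTCT in capitals. All are written 5′ to 3′, and a match is a description of the sequence, not of binding.
Sgk1 promoter: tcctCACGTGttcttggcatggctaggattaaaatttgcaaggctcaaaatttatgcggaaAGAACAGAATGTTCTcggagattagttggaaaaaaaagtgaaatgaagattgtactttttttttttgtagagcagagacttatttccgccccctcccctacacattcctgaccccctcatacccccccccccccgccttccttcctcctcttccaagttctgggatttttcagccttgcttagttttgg
Fkbp5 promoter: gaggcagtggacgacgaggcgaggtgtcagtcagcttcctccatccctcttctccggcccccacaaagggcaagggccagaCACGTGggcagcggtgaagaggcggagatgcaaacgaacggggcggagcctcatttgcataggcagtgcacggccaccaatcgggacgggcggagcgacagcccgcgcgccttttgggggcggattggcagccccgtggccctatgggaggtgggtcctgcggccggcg
Tsc22d3 promoter stretch: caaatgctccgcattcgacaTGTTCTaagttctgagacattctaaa

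With age, the genes of the list that stood out were Hsd11b1 and Fkbp5, and BAM15 moved none of the 8 past the threshold at either age. In BAM15 mice Hsd11b1 rose 9.13-fold with age, and 1 of the 8 genes was called, where called means an adjusted p under 0.05. That call rests on few libraries: the difference was 2.37-fold and not called (adjusted p = 0.120) once the 4 libraries low in mt-Rnr2 were left out, and the call held in 4 of 11 fits that left out a single library. Over all genes tested, 0.427% were called in that comparison, and 16.4% of all genes and 2 of the 8 had an unadjusted p under 0.05. In CTRL mice 0 of the 8 were called by the quasi-likelihood test of edgeR, against 0.207% of all genes, and 3 had an unadjusted p under 0.05, against 8.43% of all genes. In CTRL mice DESeq2 called Fkbp5 of the 8, against 1.12% of all genes. There limma-voom, which gave each library a quality weight, called Hsd11b1 and Fkbp5, against 0.91%. In BAM15 mice each of these tools called Hsd11b1 and Fkbp5, against 2.32% of all genes by DESeq2 and 1.89% by limma-voom. The median log2 change with age over the 8 genes was 0.95 in CTRL mice, where that of all genes was -0.04, and 0.26 in BAM15 mice, where that of all genes was -0.10. In the fit to the other 20 libraries it was 1.06 in CTRL and 0.67 in BAM15 mice, beside -0.04 and -0.05 for all genes. No library is shared by the age comparisons, and the log2 change had the same sign in both for 8 of the 8 genes, against 64.5% of all genes. In that count 7 of the 8 were higher in aged mice of both arms, against 27.7% of all genes, and Nr3c1 was lower in both. In BAM15 mice, however, the changes of Tsc22d3, Zbtb16, Sgk1, Klf9 and Pdk4 were smaller than their SE. Those of Zbtb16, Klf9 and Pdk4 changed sign in some fits that left out a single library. Some of the 8 also varied together among mice, so their signs are not independent. In bulk tissue, a change in the share of a cell type and a change in RNA per cell cannot be told apart.

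**Figure D1:**
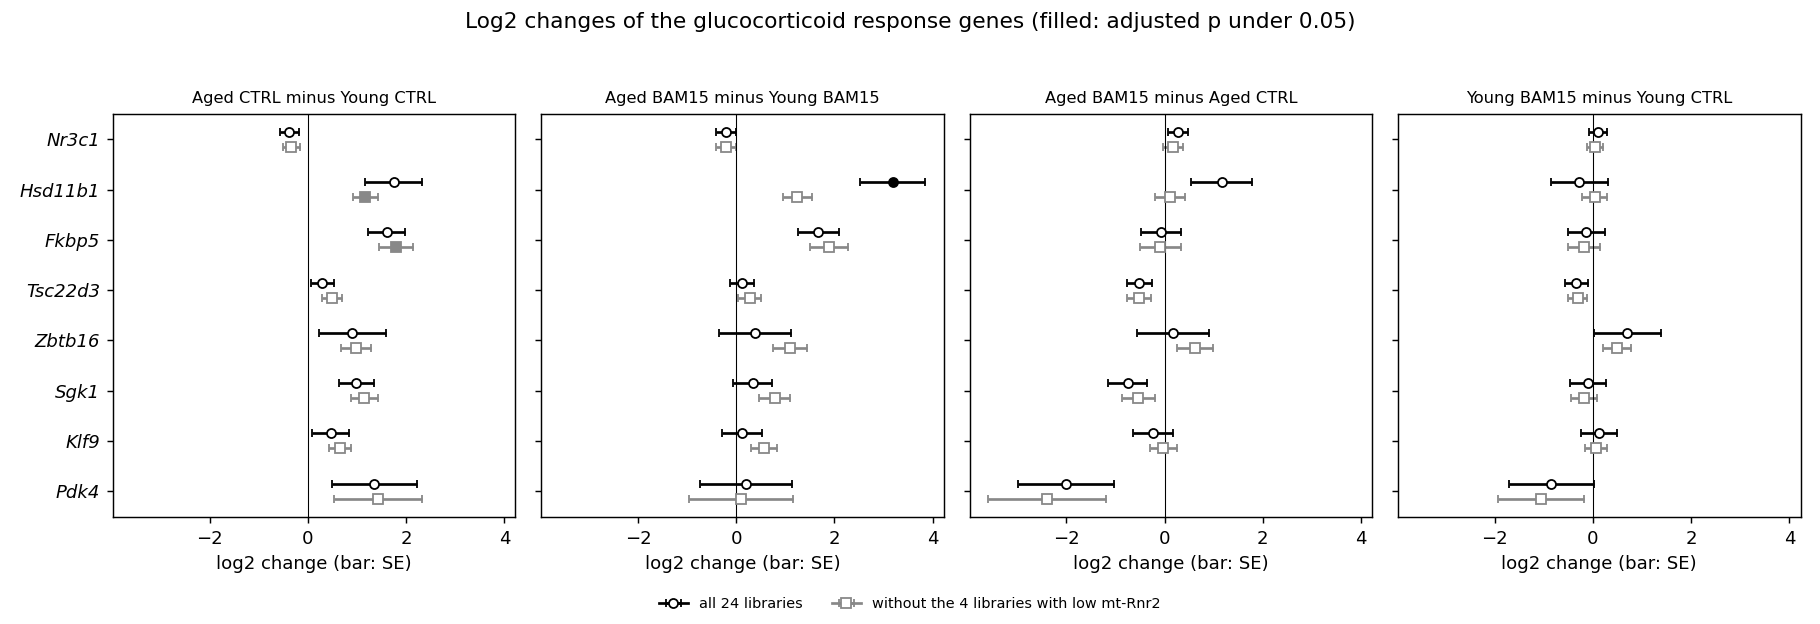
Log2 change (x axis, bar: SE) of the 8 genes in the comparisons named above the panels, from the fit to all 24 libraries (circles) and from the fit without the 4 libraries with low mt-Rnr2 (squares), with filled symbols for an adjusted p under 0.05. Hsd11b1 in BAM15 mice is filled at 3.19 with all libraries and open at 1.25 without the 4, and in CTRL mice Hsd11b1 and Fkbp5 are filled only without them.

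The receptor gene Nr3c1 (chromosome 18) was slightly lower in aged mice, within the spread of the groups. It measured 130.2, 142, 132, 158 and 146 CPM in the 5 Aged BAM15 mice, against a lowest value of 130.4, a median of 161 and a highest of 228 CPM in Young BAM15 mice. In Aged CTRL mice the lowest, median and highest were 78.2, 110.0 and 174 CPM, against 107, 162 and 178 CPM in Young CTRL mice. The groups overlapped in both arms, with 5 of 5 Aged BAM15 and 5 of 6 Aged CTRL mice below the mean of their young group. The log2 change with age was -0.21 ± 0.20 (SE, adjusted p = 0.593) in BAM15 mice and -0.38 ± 0.19 (adjusted p = 0.601) in CTRL mice. Neither passed the test.

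Hsd11b1 (chromosome 1, 193221634 to 193264075, minus strand), the enzyme that regenerates active glucocorticoid, had the largest log2 change with age of the 8 in the fit to all libraries, and a smaller one than Fkbp5 in both arms without the 4 libraries with low mt-Rnr2. It measured 137, 1059, 202, 101 and 1367 CPM in the Aged BAM15 mice, against a lowest value of 47.8, a median of 63.0 and a highest of 79.6 CPM in Young BAM15 mice. All 5 Aged BAM15 mice lay above all 6 Young BAM15 mice, which held for 1.17% of all genes tested. The log2 change was 3.19 ± 0.66 (SE), and the adjusted p was 0.0308. The libraries at 1059 and 1367 CPM were Aged BAM15 2 and 5, both with low mt-Rnr2. In the fit without the 4 such libraries the log2 change was 1.25 ± 0.29 with an adjusted p of 0.120, in a fit that called 0.163% of all genes, although the 3 remaining Aged BAM15 mice still lay above every Young BAM15 mouse, as 2.07% of all genes did. The call was lost with a fit to the compared groups alone (adjusted p = 0.0773) and with Aged BAM15 2 (0.0830), Aged BAM15 5 (0.161) or any of Young BAM15 2 to 6 left out. With B cell and muscle marker levels as covariates the change was 3.43 and called (adjusted p = 0.0350).

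In CTRL mice Hsd11b1 had a lowest value of 84.3, a median of 134 and a highest of 858 CPM with age, against 40.4, 56.6 and 169.7 CPM in Young CTRL mice. The highest mouse of each group, Aged CTRL 2 and Young CTRL 4, was again a library with low mt-Rnr2. All 6 Aged CTRL mice were above the Young CTRL mean, but the groups overlapped. The log2 change of 1.75 ± 0.58 did not pass the test (adjusted p = 0.286) and was 0.83 without Aged CTRL 2. Without the 4 libraries it was smaller with a smaller error, 1.17 ± 0.26, and passed (adjusted p = 0.0424). In that fit 0.477% of all genes were called. Over the whole series Hsd11b1 ran from 169.7 to 1367 CPM in the 4 libraries with low mt-Rnr2 and from 40.4 to 224 CPM in the other 20.

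Fkbp5 (chromosome 17, 28399094 to 28517527, minus strand), the co-chaperone that feeds back on the receptor and whose promoter is printed above, was about 3 times higher in aged mice of both arms but missed the threshold in each. In the Aged BAM15 mice it measured 32.6, 40.3, 149.7, 137 and 104 CPM, against a lowest value of 25.6, a median of 28.9 and a highest of 33.4 CPM in Young BAM15 mice. In the Aged CTRL mice it measured 130.4, 20.9, 47.1, 53.6, 188 and 143 CPM, against 23.7, 31.2 and 41.5 CPM as the lowest, median and highest of Young CTRL mice. The young mice were tightly grouped, and the aged mice split into some near the young level and 6 of 11 above 100 CPM. The overlap came from Aged BAM15 1 at 32.6 CPM in the BAM15 arm and from Aged CTRL 2 at 20.9 CPM in the CTRL arm.

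The log2 change of Fkbp5 with age was 1.66 ± 0.42 (SE) in BAM15 mice, a 3.17-fold difference with an adjusted p of 0.0883, and all 5 Aged BAM15 mice were above the Young BAM15 mean. In CTRL mice it was 1.60 ± 0.38, a 3.03-fold difference with an adjusted p of 0.0880, and 5 of 6 Aged CTRL mice were above the Young CTRL mean. Without Aged CTRL 2, a library with low mt-Rnr2, the change in CTRL mice was 1.81 and passed (adjusted p = 0.0179). Without all 4 such libraries it was 1.79 ± 0.35 in CTRL mice (adjusted p = 0.0220) and 1.89 ± 0.38 in BAM15 mice (adjusted p = 0.0520). All 5 remaining Aged CTRL mice then lay above all remaining Young CTRL mice, as 0.954% of all genes did. Fkbp5 did not separate the 4 libraries, which ran from 20.9 to 104 CPM, from the other 20, which ran from 23.7 to 188 CPM.

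**Figure D2:**
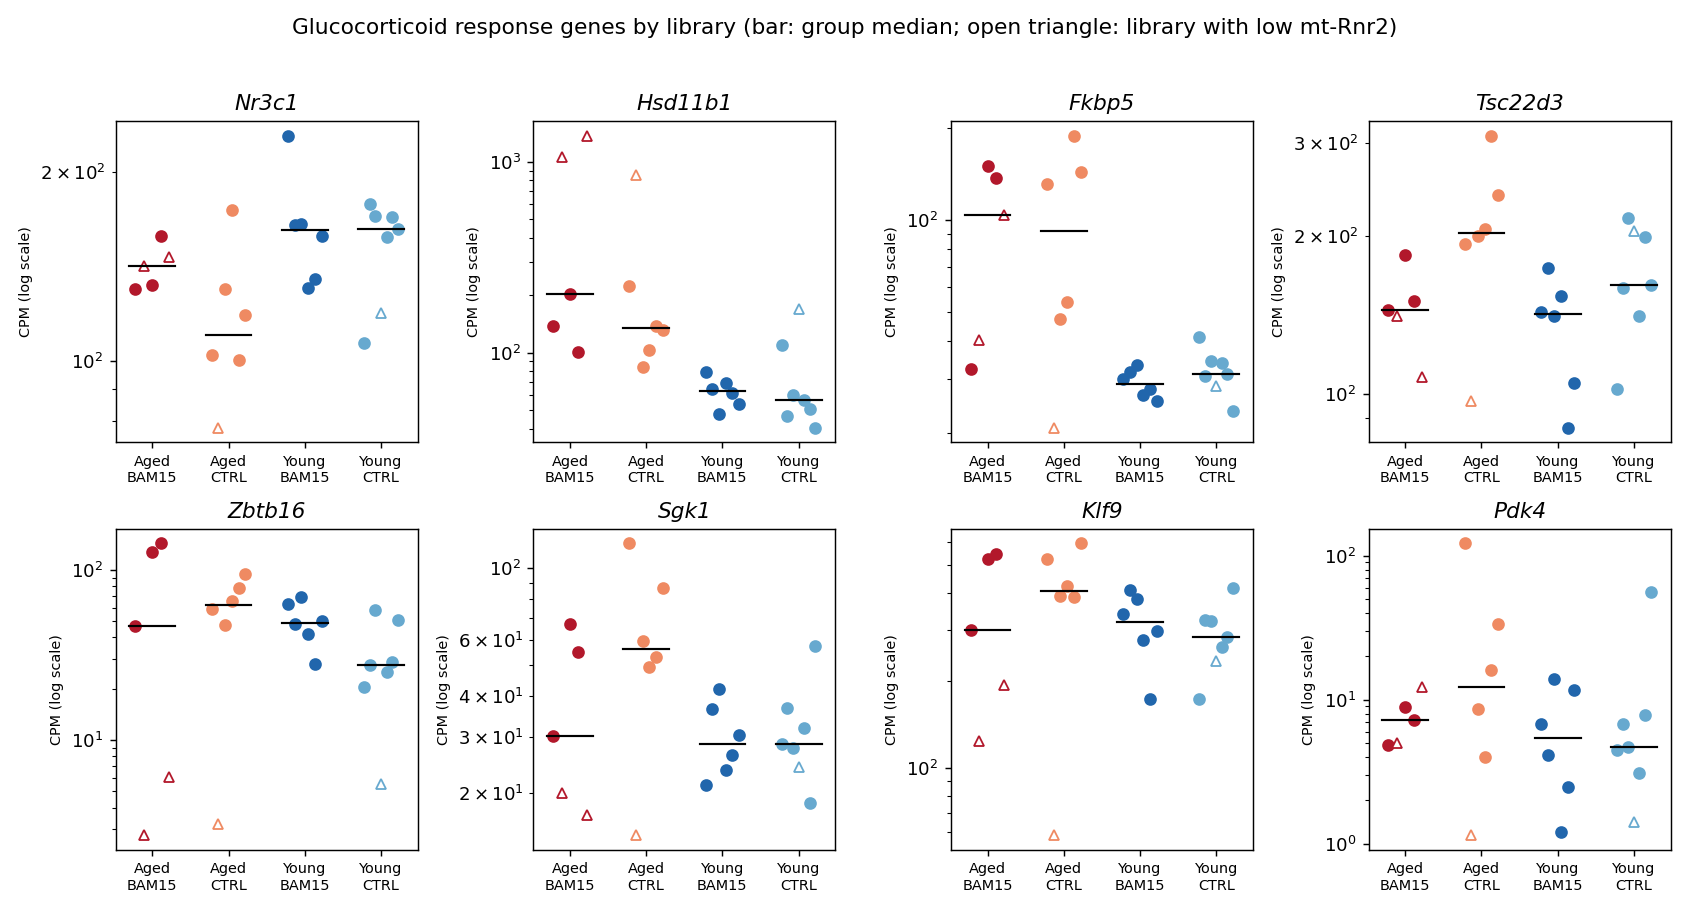
CPM (log scale, each panel with its own range) of the 8 genes in every library by group, with the group median as a bar and the 4 libraries with low mt-Rnr2 as open triangles. Fkbp5 spans 20.9 to 188 CPM in aged mice and 23.7 to 41.5 CPM in young mice, and in Zbtb16 the 4 triangles lie below every other library.

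Tsc22d3 (chromosome X, 140539528 to 140600659, minus strand) encodes GILZ, a leucine zipper protein that carries part of the anti-inflammatory action of the receptor. It measured 144, 141, 184, 150.2 and 108 CPM in the Aged BAM15 mice, against 86.5, 142 and 174 CPM as the lowest, median and highest of Young BAM15 mice. In Aged CTRL mice these were 97.0, 203 and 309.6 CPM, against 102, 161 and 216 CPM in Young CTRL mice. The groups overlapped in both arms, and the log2 changes with age were 0.12 ± 0.25 (adjusted p = 0.816) in BAM15 mice and 0.30 ± 0.23 (adjusted p = 0.839) in CTRL mice. Neither passed, also not without the 4 libraries (0.27 ± 0.23 and 0.49 ± 0.20, with adjusted p of 0.943 and 0.344). Over the other 20 libraries, Tsc22d3 had a Pearson r of 0.81 with the mean log2 CPM of adipocyte markers and 0.69 with that of macrophage markers. It was -0.65 with B cell and -0.63 with T and innate lymphoid markers. With progenitor, skeletal muscle and skin epithelium markers it was 0.39, 0.14 and -0.40. The part of tissue makeup in the Tsc22d3 values was not tested.

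Zbtb16 (chromosome 9, 48654297 to 48836222, minus strand) encodes the zinc finger repressor PLZF. Of the 8 genes, only Zbtb16 separated the 4 libraries with low mt-Rnr2 from the others without overlap, at 2.75 to 6.05 CPM in the 4, on 40 to 105 counts each, and 20.5 to 143 CPM in the other 20. It measured 46.6, 2.75, 127, 143 and 6.05 CPM in the Aged BAM15 mice, against 28.1, 48.9 and 69.2 CPM as the lowest, median and highest of Young BAM15 mice. In Aged CTRL mice these were 3.23, 62.1 and 93.9 CPM, against 5.47, 27.7 and 57.7 CPM in Young CTRL mice. Aged mice held both the highest and the lowest values of the series. The log2 changes with age were 0.38 ± 0.74 in BAM15 mice (adjusted p = 0.801) and 0.90 ± 0.68 in CTRL mice (adjusted p = 0.829). Without the 4 libraries the errors were smaller, with 1.10 ± 0.34 (adjusted p = 0.412) and 0.97 ± 0.30 (adjusted p = 0.194), and neither passed.

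**Figure D3:**
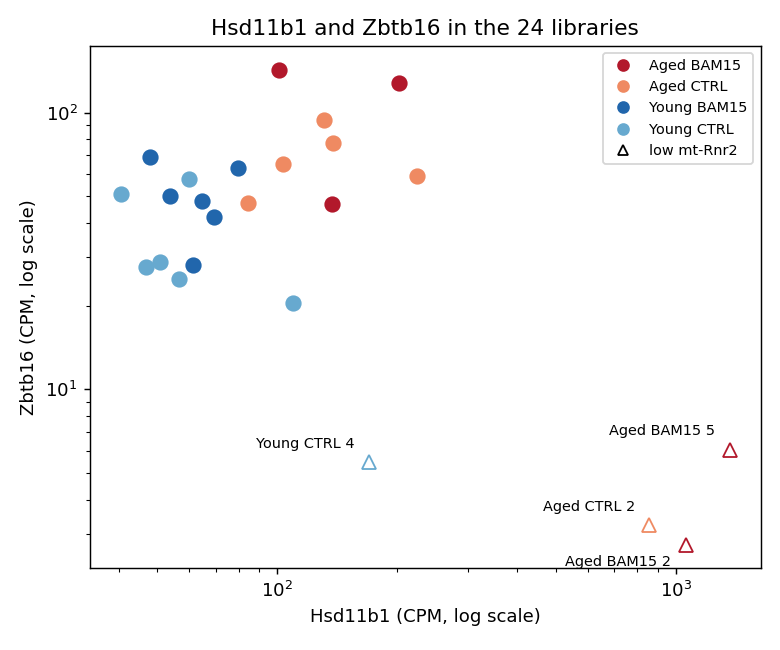
Hsd11b1 (x axis) against Zbtb16 (y axis), both in CPM on log scales, for the 24 libraries, with those of low mt-Rnr2 as named open triangles. The 4 named libraries hold at most 6.05 CPM of Zbtb16 and at least 169.7 CPM of Hsd11b1, while the other 20 hold at least 20.5 CPM of Zbtb16 and at most 224 CPM of Hsd11b1.

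Sgk1 (chromosome 10, 21882184 to 21999903, plus strand) encodes a kinase that acts on ion channels and transporters, and its promoter with the palindrome is printed above. In Aged CTRL mice the lowest, median and highest values were 14.8, 56.2 and 119 CPM, against 18.7, 28.5 and 57.3 CPM in Young CTRL mice. Aged CTRL 2, a library with low mt-Rnr2, was the lowest of the series, and the other 5 Aged CTRL mice were at 49.3 CPM or more, within the young range only up to Young CTRL 7. The log2 change was 0.99 ± 0.36 (adjusted p = 0.363) with all libraries and 1.14 ± 0.28 (adjusted p = 0.0664) without the 4. In the Aged BAM15 mice Sgk1 measured 30.2, 20.1, 66.95, 55.1 and 17.1 CPM, against 21.2, 28.4 and 42.2 CPM as the lowest, median and highest of Young BAM15 mice. Here 3 of 5 aged mice were above the young mean, and the lowest of the 5, at 17.1 and 20.1 CPM, were libraries with low mt-Rnr2. The log2 change of 0.33 ± 0.40 (adjusted p = 0.663) did not pass, nor did 0.78 ± 0.31 (adjusted p = 0.659) without the 4.

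Klf9 (chromosome 19, 23141226 to 23168134, plus strand), a zinc finger factor of the Krüppel-like family, measured 299, 124, 525, 546 and 194 CPM in the Aged BAM15 mice, against 174, 318 and 409 CPM as the lowest, median and highest of Young BAM15 mice. In Aged CTRL mice these were 58.7, 408 and 594 CPM, against 173, 283 and 416 CPM in Young CTRL mice. The low aged values, 124, 194 and 58.7 CPM, were again those of the libraries with low mt-Rnr2, and the groups overlapped. The log2 changes with age were 0.11 ± 0.41 (adjusted p = 0.902) in BAM15 mice and 0.47 ± 0.37 (adjusted p = 0.849) in CTRL mice. Without the 4 libraries they were 0.57 ± 0.27 (adjusted p = 0.766) and 0.65 ± 0.23 (adjusted p = 0.260), so none passed.

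Pdk4 (chromosome 6, 5483351 to 5496309, minus strand) encodes a kinase that switches off pyruvate dehydrogenase and so spares glucose, and it is abundant in muscle. Its counts were low in some libraries, at 12 to 1671 each. It measured 4.86, 5.03, 8.87, 7.19 and 12.3 CPM in the Aged BAM15 mice, against 1.21, 5.45 and 14.02 CPM as the lowest, median and highest of Young BAM15 mice. In Aged CTRL mice these were 1.14, 12.3 and 122 CPM, against 1.41, 4.72 and 56.3 CPM in Young CTRL mice. The highest value of each of the last 3 groups came from the mouse with the most Acta1 in its group: Young BAM15 3, Aged CTRL 1 and Young CTRL 7. The summed CPM of 12 muscle markers in these was 74179, 26242 and 65871, against group medians of 59.3 in Young BAM15, 547 in Aged CTRL and 325 in Young CTRL. In the Aged BAM15 group the mouse with the most Acta1, Aged BAM15 1, had the lowest Pdk4. The log2 change with age was 0.19 ± 0.94 (adjusted p = 0.928) in BAM15 mice and 1.36 ± 0.86 (adjusted p = 0.757) in CTRL mice. It was -0.44 and 1.57 with muscle and B cell marker levels as covariates, and in CTRL mice 0.07 without Aged CTRL 1 and 2.70 without Young CTRL 7.

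BAM15 did not move any of the 8 genes past the threshold. In aged mice the edgeR test called 0 of the 8 and 0% of all genes, with 9.1% of all genes and 0 of the 8 at an unadjusted p under 0.05. In young mice it also called 0 of the 8 and 0% of all genes, with 13.1% of all genes and 0 of the 8 at an unadjusted p under 0.05. DESeq2 called 0.659% of all genes in aged and 1.01% in young mice, limma-voom called 6.06% and 3.96%, and neither called any of the 8. The median log2 change of the 8 was -0.15 in aged and -0.12 in young mice, beside 0.02 and 0.03 for all genes. The age comparisons and the BAM15 comparisons share libraries, so their values are not independent of each other.

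In aged mice Pdk4 differed with BAM15 by a log2 change of -2.01 ± 0.98 (SE, adjusted p = 0.550), and by -0.72 without Aged CTRL 1, the library at 122 CPM. The values, 4.86 to 12.3 CPM in Aged BAM15 and 1.14 to 122 CPM in Aged CTRL mice, overlapped. Tsc22d3 was lower by -0.51 ± 0.25 (adjusted p = 0.550) on the log2 scale, with all 5 Aged BAM15 mice below the Aged CTRL mean of 207 CPM, and Sgk1 differed by -0.75 ± 0.40 (adjusted p = 0.598). Hsd11b1 differed by 1.16 ± 0.63 (adjusted p = 0.603), and by 0.11 ± 0.31 without the 4 libraries of low mt-Rnr2, which were 2 of 5 in Aged BAM15 and 1 of 6 in Aged CTRL. Fkbp5, the co-chaperone gene, differed by -0.07 ± 0.41 (adjusted p = 0.981), with 2 of 5 Aged BAM15 mice below the Aged CTRL mean.

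In young mice the log2 differences with BAM15 lay between -0.84 ± 0.87 for Pdk4 and 0.70 ± 0.68 for Zbtb16, with adjusted p of 0.543 or more. The difference between both BAM15 effects, which is also the difference between both age effects, was called for 0 of the 8 and for 0% of all genes by edgeR, with 5.08% of all genes and 0 of the 8 at an unadjusted p under 0.05. DESeq2 called 2 genes in it (0.0125%) and limma-voom 0, none of them among the 8. It was largest for Hsd11b1, at 1.44 ± 0.85 (adjusted p = 0.899). Without the 4 libraries that value was 0.08 ± 0.40. For Fkbp5 it was 0.06 ± 0.56 (adjusted p = 0.991).

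Of 25 further genes known to be induced by glucocorticoids, 4 rose with age in CTRL mice, where 0.207% of all genes were called, and 3 in BAM15 mice, where 0.427% were, and none fell. The median log2 change of the 25 was 0.33 in CTRL mice and 0.65 in BAM15 mice, beside -0.04 and -0.10 for all genes. In the 20 libraries left without low mt-Rnr2 it was 0.42 in CTRL and 0.40 in BAM15 mice. Mt2, a metallothionein that binds zinc and copper, averaged 881 ± 609 CPM in Aged CTRL mice (SD, n = 6) and 159 ± 83.1 CPM in Young CTRL mice (SD, n = 7), a log2 change of 2.47 ± 0.43 (SE, adjusted p = 0.0106). In the BAM15 arm it averaged 709 ± 475 CPM in Aged BAM15 mice (SD, n = 5) and 104 ± 27.7 CPM in Young BAM15 mice (SD, n = 6), a log2 change of 2.76 ± 0.47 (adjusted p = 0.00612). In Mt1, of the same gene family, every aged mouse was above every young mouse of its arm, as for 0.333% of all genes in CTRL and 1.17% in BAM15 mice. Its log2 changes were 1.89 ± 0.34 in CTRL (adjusted p = 0.0118) and 2.42 ± 0.37 in BAM15 mice (adjusted p = 0.00222). Fam107a, an actin-binding protein that rises under stress in the brain, was at low levels and rose by 2.32 ± 0.41 in CTRL mice (adjusted p = 0.0106) and 2.31 ± 0.44 in BAM15 mice (adjusted p = 0.0163). In the same 20 libraries Fam107a differed by 1.59 ± 0.46 in BAM15 mice and was not called (adjusted p = 0.326).

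Per1, a core clock gene with its own response to glucocorticoids, rose by 1.28 ± 0.25 on the log2 scale in CTRL mice (adjusted p = 0.0245), a call that held in 4 of 13 fits that left out a single library (adjusted p from 0.0168 to 0.0697). In BAM15 mice it differed by 0.97 ± 0.28 and was not called (adjusted p = 0.128). Without Young CTRL 1 and 7, the libraries with Krt14, 0 of the 25 genes were called in CTRL mice and 3 in BAM15 mice. Of the 15783 genes tested in that fit, 4 were called in CTRL mice, against 33 with all libraries, and 70 in BAM15 mice, against 68. In the 20 libraries without low mt-Rnr2, 5 of the 25 were called in CTRL mice, against 0.477% of all genes. In BAM15 mice 2 of the 25 were called there, against 0.163% of all genes. With BAM15, 0 of the 25 were called at either age. The smallest p values in aged mice were those of Angptl4 (-0.80 ± 0.35), Dusp1 (-0.59 ± 0.28) and Foxo1 (0.48 ± 0.24), with adjusted p of 0.496, 0.537 and 0.568. In young mice they were those of Lcn2 (-5.51 ± 1.32), Cebpb (-0.81 ± 0.29) and Anxa1 (-1.12 ± 0.49), with adjusted p of 0.179, 0.271 and 0.338. Of 10 markers of skin epithelium 6 were tested and 0 called in young mice, with a median log2 change of -4.66 with BAM15 and a summed level of 12.3 to 21.9 CPM in Young BAM15 and 23.2 to 3479 CPM in Young CTRL. Their part in these values was not tested.

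The clock list was examined because the hour of tissue collection sets both clock genes and glucocorticoid levels in mice, and the labels used here give no hour. Of 16 clock genes, 5 rose with age in BAM15 mice, where 0.427% of all genes were called, and 1 in CTRL mice, where 0.207% were. In the 20 libraries without low mt-Rnr2, 6 were higher and 1 lower in BAM15 mice, and 3 higher and 1 lower in CTRL mice, where 0.163% and 0.477% of all genes were called. Dbp, a clock output factor, rose in both, by 2.76 ± 0.42 in BAM15 mice (SE, adjusted p = 0.00222) and by 2.07 ± 0.38 in CTRL mice (adjusted p = 0.0118). Aged CTRL mice were split, with Dbp at 18.4 and 12.3 CPM in Aged CTRL 5 and 6 and at 37.3 to 94.8 CPM in the others. Young CTRL mice held 8.51 to 18.5 CPM of Dbp. Its relatives Tef and Hlf rose in BAM15 mice by 2.59 ± 0.46 and 1.41 ± 0.24, and the clock genes Per3 and Nr1d2 by 2.08 ± 0.31 and 2.47 ± 0.52. Tef stood at 1057 and 787 CPM in Aged BAM15 2 and 5, both with low mt-Rnr2, and at 211 to 350.0 CPM in the other Aged BAM15 mice, and Nr1d2 at 301 and 257 CPM against 68.8 to 89.7 CPM. In the fit to the 20 libraries Tef rose by 1.66 ± 0.22 (adjusted p = 0.00141) and Nr1d2 by 1.51 ± 0.25 (adjusted p = 0.00718), while with single libraries left out the call of Nr1d2 held in 4 of 11 fits (adjusted p up to 0.123). Per2 at 1.76 ± 0.44 (adjusted p = 0.110) and Per3 at 0.97 ± 0.28 (adjusted p = 0.179) did not pass in CTRL mice with all libraries. Arntl, the activator whose transcript runs opposite to Dbp in the daily cycle, had -1.27 ± 0.39 in CTRL mice (adjusted p = 0.219) and was the gene called lower in both arms without the 4. With BAM15, 0 of the 16 were called at either age, and the smallest p values were those of Hlf, Per3 and Tef in aged mice (adjusted p of 0.215, 0.250 and 0.386) and of Nfil3, Ciart and Bhlhe41 in young mice (0.565, 0.590 and 0.600). The part of the clock in the results of the 8 genes was not tested.

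**Figure D4:**
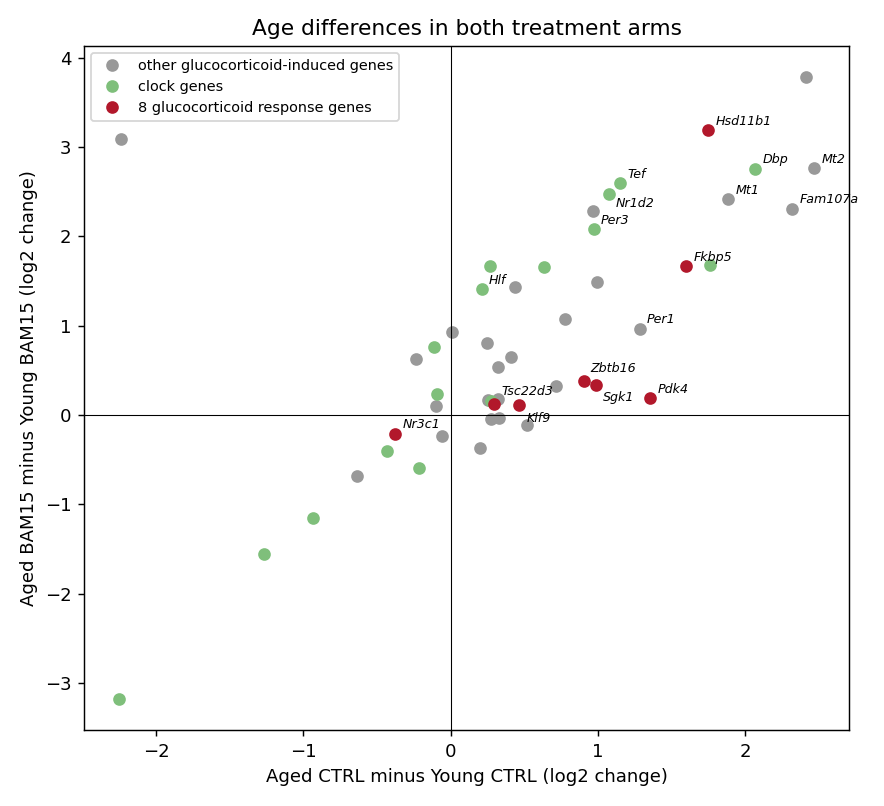
Log2 change with age in CTRL mice (x axis) and in BAM15 mice (y axis) for the 8 genes, 25 other glucocorticoid-induced genes and 16 clock genes, with names for the 8 and for genes called in either comparison. Of the 8, 7 lie at positive values on both axes, and Nr3c1 lies at negative values on both. Among the 7, Hsd11b1 is highest on both axes at 1.75 and 3.19. Tsc22d3 is lowest on the x axis at 0.30, and Klf9 is lowest on the y axis at 0.11.

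Genes around the hormone and its receptor gave no call. Of 12 steroid-handling genes, which include H6pd, the enzyme that supplies Hsd11b1 with NADPH, 11 were tested and 0 were called in any of the 5 comparisons. With age in CTRL mice 2 were higher and 3 lower at an unadjusted p under 0.05, as were 8.43% of all genes in either direction. In BAM15 mice 3 were higher and 0 lower at that limit, beside 16.4% of all genes in either direction. Those with the most counts, Cyb5a and Por, which encode electron carriers of steroid-converting enzymes, averaged 325 ± 55.3 and 498 ± 185 CPM in Aged BAM15 mice (SD, n = 5), against 319.6 ± 98.9 and 238 ± 50.5 CPM in Young BAM15 mice (SD, n = 6). In Aged CTRL mice Cyb5a and Por averaged 359 ± 110 and 322 ± 58.8 CPM (SD, n = 6). Young CTRL mice averaged 395 ± 173 and 257 ± 72.0 CPM (SD, n = 7). Of 16 chaperones and cofactors of the receptor, 0 were called in any comparison, and their median log2 change with age was -0.11 in CTRL and -0.04 in BAM15 mice. Those with the most counts, the chaperone gene Hsp90ab1 and the corepressor gene Ncor1, averaged 1257 ± 305 and 495 ± 158 CPM in Aged CTRL mice (SD, n = 6), against 1320.5 ± 293 and 459 ± 54.5 CPM in Young CTRL mice (SD, n = 7).

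How the 8 genes varied among mice of the same group was followed in the 20 libraries without low mt-Rnr2, as deviations of log2 CPM from the group mean. Of 28 pairs, 2 had a Pearson r past the threshold after adjustment, in a permutation test with 100000 resamples within groups. How often pairs drawn from all genes would pass was not computed, so this count has no background beside it. With group differences kept, Klf9 in these libraries had r = 0.836 with Zbtb16 and 0.824 with Sox5. Sox5 ranked only 23 among the 10445 genes compared with Klf9. Zbtb16 and Klf9 varied together most closely, with r = 0.807 (p = 0.00018, adjusted p = 0.00504) and Spearman rho = 0.749 (p = 0.00061, adjusted p = 0.0171). Without the 2 libraries farthest from the median of Zbtb16, r was 0.809. In this and the other pairs the 2 were picked by 1 gene of the pair only. Sgk1 and Pdk4 had r = 0.703 (p = 0.00173, adjusted p = 0.0242) and rho = 0.617 (p = 0.0079, adjusted p = 0.0442). Without the 2 libraries farthest from the median of Sgk1, r was 0.483. Sgk1 and Pdk4 were both highest of their group in Young BAM15 3, Aged CTRL 1 and Young CTRL 7. These were the 3 libraries with the most Acta1, whose part in the relation was not tested. By rho alone, Klf9 with Sgk1 (rho = 0.698, adjusted p = 0.0252), Klf9 with Pdk4 (rho = 0.677, adjusted p = 0.0252) and Zbtb16 with Pdk4 (rho = 0.573, adjusted p = 0.0442) also passed, with r of 0.618, 0.562 and 0.431. The permutation p of these r values were 0.00821, 0.0113 and 0.041, and none passed after adjustment (0.0575, 0.0632 and 0.143).

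Fkbp5 passed with none of the other 7 genes. With Tsc22d3, another direct target, it had r = 0.261 (p = 0.172, adjusted p = 0.343) and rho = 0.328 (p = 0.149, adjusted p = 0.278). Without the 2 libraries farthest from the median of Fkbp5, r was 0.205. With Hsd11b1, Fkbp5 had r = 0.445 (p = 0.132, adjusted p = 0.285) and rho = 0.502 (p = 0.0611, adjusted p = 0.214). Without the 2 farthest from the median of Hsd11b1, r was 0.422. The receptor gene Nr3c1 and Hsd11b1 ran opposite, with r = -0.527 (p = 0.0331, adjusted p = 0.132) and rho = -0.573 (p = 0.0177, adjusted p = 0.0709), and did not pass. Without the 2 farthest from the median of Nr3c1, r was -0.314.

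**Figure D5:**
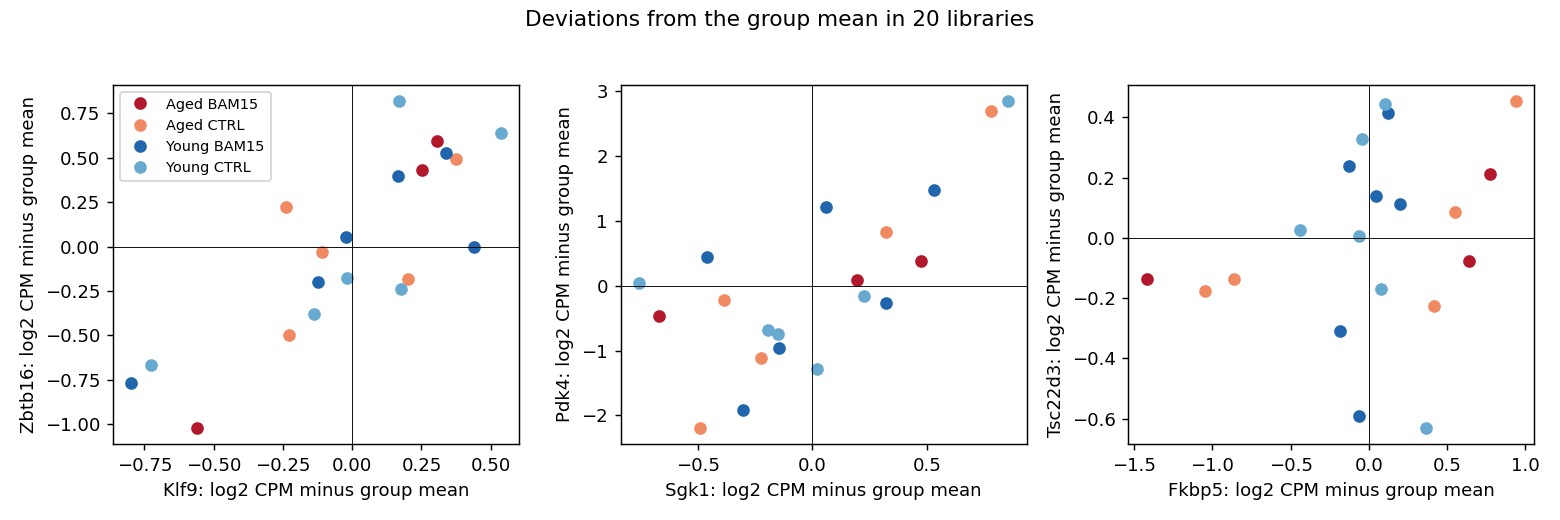
Log2 CPM minus the group mean for Klf9 against Zbtb16, Sgk1 against Pdk4 and Fkbp5 against Tsc22d3 in the 20 libraries without low mt-Rnr2, each point a mouse, coloured by group. The points rise along a line for Klf9 and Zbtb16 (r = 0.807), less closely for Sgk1 and Pdk4 (r = 0.703), and show no line for Fkbp5 and Tsc22d3 (r = 0.261).

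Among 10445 genes that averaged 5 CPM or more, those most like each of the 8 over the 24 libraries were named by Pearson r of log2 CPM, as a description, since libraries share depth, group and tissue makeup. Fkbp5 was most like Tob2 (r = 0.811) and Mt1 (r = 0.806), and Mt1 ranked first in the 20 libraries (r = 0.891). Nr3c1 was most like Nfia (0.899) and Ralgapa2 (0.839), and Tsc22d3 was most like Prdx6 (0.853) and Gask1b (0.832). Hsd11b1 was most like Serinc3 (0.939) and Mbd2 (0.938), at 0.747 and 0.669 in the 20 libraries. Zbtb16 was most like Mertk (0.958) and Klf6 (0.922), at 0.852 and 0.503 in the 20 libraries. Sgk1 was most like Id1 (0.836) and Ly6c1 (0.822), Klf9 was most like Sox5 (0.932) and Dab2ip (0.922), and Pdk4 was most like Synpo (0.798) and Tacc2 (0.793).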

How the data were processed

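Inguinal fat of 24 mice, each with its own ID in the labels, was measured with QuantSeq 3′ libraries. The deposited raw counts hold 17541 genes. The authors' normalised table holds the same counts as a signal divided by a size factor per library (deviation at most 6.52e-09), so only the counts were tested and the table gave gene symbols. R 3.4.3, DESeq2 1.18.1 and build GRCm38 are named in the submitters' processing notes, and no source used here gives the aligner or counter.

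Genes with low counts were removed with filterByExpr (15939 kept), libraries were scaled with TMM, and all adjusted p values without another tool's name come from the quasi-likelihood test of edgeR 4.0.16 (R 4.3.3) fitted to all 4 groups with 20 residual degrees of freedom, with Benjamini-Hochberg adjustment over all tested genes. The SE is that of the log2 change, and the call threshold was 0.05. A prior count of 2 entered log2 CPM. The test was run on simulated counts drawn independently for each library and gene. These held no shared effect like that of the 4 libraries with low mt-Rnr2, so they cannot speak for calls that depend on those libraries. DESeq2 1.42.0, limma-voom 3.58.1, other scaling, no filter, the compared groups alone, marker covariates, a replicate block and libraries left out were alternatives. The limma-voom fit used quality weights, so libraries did not count equally in it. Library totals were 8.62 to 21.9 M, and within-group pairs differed beyond sampling noise. The members and lists were chosen with earlier results of these data known. Named were the 8 members, called genes of the other lists, the 3 smallest p of the glucocorticoid and clock lists in each comparison of 2 groups, the 2 genes with the most counts of the steroid and chaperone lists, and the 2 most similar genes of each member. Low mt-Rnr2 means under 0.5% of counts.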

Additional observations from a re-analysis of the deposited data

Results flagged for a closer look

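Dixon's test was run on CPM in 32 sets of values (8 genes in 4 groups). In 4 sets the gap between a library and the nearest other exceeded its 95% limit. For normally distributed values chance gives about 1 in 20. Whether CPM values are so distributed was not checked, so the count of 4 cannot be set against that rate. The flags hold for the CPM scale only and were not tested on log2 CPM. Nr3c1 stood at 228 CPM in Young BAM15 1, where the next value was 165 CPM. Hsd11b1 stood at 858 CPM in Aged CTRL 2, a library with low mt-Rnr2, where the next was 224 CPM. Pdk4 stood at 122 CPM in Aged CTRL 1, where the next was 33.4 CPM, and at 56.3 CPM in Young CTRL 7, where the next was 7.9 CPM, and both libraries were the highest of their group in Acta1.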

How the results depend on the processing

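Of the 8 genes, 0 were called with age in CTRL mice. DESeq2 called 1, limma-voom called 2, and the fit without the 4 libraries with low mt-Rnr2 called 2, while leaving out single libraries gave 0 to 1, with Fkbp5 called without Aged CTRL 2. In BAM15 mice 1 was called, with 2 by DESeq2, 2 by limma-voom, 0 in the compared groups alone, 0 without the 4 libraries and 0 to 2 with single libraries left out, the 2 being Hsd11b1 and Fkbp5 without Aged BAM15 1. With a replicate block 0 of the 8 were called in BAM15 mice, and 5 and 13 genes in all were called with age in CTRL and BAM15 mice, against 33 and 68 without it. Of the 25 other induced genes, 0 and 1 were then called. Mice that share a number had a median correlation of -0.04 over 33 pairs (0.00 for 182 other pairs), and 3 of 24 correlated best with their own number. Single pairs of the same number ran from -0.56 to 0.63, so these correlations could miss a small effect shared by number. The labels do not say that mice of the same number belong together, and the numbers were taken as names of mice. Whether a batch goes with the number was not settled.

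Counts over all genes with age in CTRL and BAM15 mice were 18 and 17 in the compared groups alone, 51 and 41 with muscle and B cell covariates (7 for BAM15 in young mice), and 79 and 27 without the 4 libraries. Without the Krt14 libraries 4 were called in CTRL mice. Leaving out single libraries gave 14 to 121 with age in BAM15 mice, and for BAM15 in aged mice 67 without Aged BAM15 1 and 17 without Aged CTRL 2.

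Log2 changes that reversed were not called in either fit, and the cause was not tested. With limma-voom these were, for BAM15 in aged mice, Fkbp5 (0.41) and Klf9 (0.050), and in young mice Nr3c1 (-0.027) and Hsd11b1 (0.17). With the replicate block they were Zbtb16 with age in BAM15 mice (-0.061), Fkbp5 (0.038) and Zbtb16 (-0.13) for BAM15 in aged mice, and Sgk1 (0.067) and Pdk4 (0.27) in young mice. With the covariates they were Tsc22d3 (-0.069), Klf9 (-0.055) and Pdk4 (-0.44) with age in BAM15 mice, and Pdk4 (0.34) for BAM15 in young mice. Without the 4 libraries they were Hsd11b1 for BAM15 in young mice (0.035) and the interaction of Zbtb16 (0.13). Without the Krt14 libraries they were Sgk1 (0.11) and Pdk4 (0.49) for BAM15 in young mice. Leaving out single libraries gave ranges across 0. With age in BAM15 mice these were -0.13 to 0.70 for Zbtb16, -0.13 to 0.34 for Klf9 and -0.048 to 0.53 for Pdk4. For BAM15 in aged mice they were -0.31 to 0.23 for Fkbp5 and -0.34 to 0.47 for Zbtb16. For BAM15 in young mice they were -0.049 to 0.17 for Nr3c1, -0.40 to 0.050 for Hsd11b1, -0.22 to 0.10 for Sgk1 and -1.19 to 0.50 for Pdk4. For the interaction they were -0.18 to 0.36 for Fkbp5 and -2.51 to 0.12 for Pdk4. Depth was lowest for Pdk4, at 12 counts in a library.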

Other observations

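No macrophage marker was called by edgeR in any comparison. Their summed level was 563 to 1470 CPM in Aged BAM15 mice, against 835 to 1970 CPM in Aged CTRL mice, and the log2 change of 0 of 10 was positive, with a median of -0.54 beside 0.02 for all genes. Trem2, a lipid-sensing receptor of macrophages, differed by -2.51 ± 0.61 (SE) and Itgax, an integrin of macrophages and dendritic cells, by -1.90 ± 0.47, both with an adjusted p of 0.226 in edgeR's quasi-likelihood test. With age 10 of 10 were positive in CTRL mice, with a median of 0.68, and 6 of 10 in BAM15 mice, with a median of 0.22.

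Immediate early genes, which respond within minutes to many stimuli, had 0 of 10 positive log2 changes with BAM15 in aged mice, with a median of -0.61 and 0 called by edgeR. Their summed level was 110.2 to 212 CPM in Aged BAM15 mice, against 177 to 365 CPM in Aged CTRL mice. Atf3 and Fos, transcription factor genes, differed by -1.71 ± 0.47 and -2.01 ± 0.75 (adjusted p of 0.257 and 0.404). In young mice the median was -0.25, with 2 of 10 positive. Trem2, Itgax, Atf3 and Fos were chosen after their values were seen.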
